A study of Homo sapiens with 16 samples.

Results

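Itraconazole, an antifungal azole that also blocks Hedgehog signaling, was compared with its solvent in 2 human colorectal cancer cell lines, and the RNA of 10 genes of the BMP and TGF-beta pathways is described here across the 4 resulting groups. The genes are the ligands BMP2 and BMP4, the receptor TGFBR2, the pseudoreceptor BAMBI, the signal carrier SMAD3, the inhibitors SMAD6 and SMAD7, and the transcriptional targets ID1, ID2 and ID3. They were taken by name, with no threshold on a measured value. Each symbol matched 1 of the 54127 Ensembl gene identifiers in the count files. HT55 and SW948 are established epithelial lines from colorectal cancers. Both were grown as adherent cultures with bovine serum and kept for 6 days in either 5 µM itraconazole or DMSO, and 4 replicates of each combination were sequenced, giving 16 libraries. The labels name no introduced allele or transgene. The study's methods describe the 4 replicates as biological, and the labels only number them.

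BMP and TGF-beta ligands bind pairs of type I and type II receptor kinases, which phosphorylate SMAD proteins. The BMP arm works through SMAD1, SMAD5 and SMAD9 and the TGF-beta arm through SMAD2 and SMAD3, and both share SMAD4. In the intestine BMP ligands are strongest toward the crypt top, where they favor differentiation, and the pathway holds back stem cell expansion. The ID genes encode helix-loop-helix proteins without a DNA-binding region that block the factors they pair with, and they are the best known direct readout of BMP signaling. SMAD6, SMAD7 and BAMBI are induced by the pathway and dampen it in turn, so a list of target genes overlaps with a list of inhibitors. BMP2, BMP4, TGFBR2 and SMAD3 act upstream, so the 10 genes are not all targets.

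The promoters of ID1, ID2, ID3 and SMAD6 are shown because, of the members with a listed promoter, these 4 differed most between the lines in their response. Each line holds the 250 bases before the RefSeq start site on GRCh38.p14, written 5' to 3' on the strand of the gene, with capitals marking every GTCT or AGAC, the short SMAD-binding element read on either strand.
ID1 (chr20:31605039-31605288, plus strand): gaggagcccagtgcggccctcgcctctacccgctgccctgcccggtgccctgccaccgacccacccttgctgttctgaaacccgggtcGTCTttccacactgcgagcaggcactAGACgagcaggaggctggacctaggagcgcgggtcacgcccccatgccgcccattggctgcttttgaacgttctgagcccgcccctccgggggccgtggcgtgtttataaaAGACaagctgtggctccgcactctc
ID2 (chr2:8681806-8682055, plus strand): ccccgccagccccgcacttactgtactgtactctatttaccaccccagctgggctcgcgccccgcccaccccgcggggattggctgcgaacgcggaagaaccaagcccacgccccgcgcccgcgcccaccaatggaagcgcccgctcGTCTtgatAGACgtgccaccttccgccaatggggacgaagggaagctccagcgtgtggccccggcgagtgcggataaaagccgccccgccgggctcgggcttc
ID3 (chr1:23559502-23559751, minus strand): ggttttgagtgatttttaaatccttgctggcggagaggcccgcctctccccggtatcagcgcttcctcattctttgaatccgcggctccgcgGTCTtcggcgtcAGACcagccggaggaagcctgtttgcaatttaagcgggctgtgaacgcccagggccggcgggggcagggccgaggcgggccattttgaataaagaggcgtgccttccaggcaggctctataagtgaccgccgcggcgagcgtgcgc
SMAD6 (chr15:66701986-66702235, plus strand): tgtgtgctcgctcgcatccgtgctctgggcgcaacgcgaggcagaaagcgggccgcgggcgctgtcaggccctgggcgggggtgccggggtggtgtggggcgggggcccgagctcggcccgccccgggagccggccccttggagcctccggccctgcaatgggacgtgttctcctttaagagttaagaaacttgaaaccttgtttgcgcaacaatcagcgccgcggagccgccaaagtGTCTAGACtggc

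The window searched ran from 250 bases before to 50 bases after the start. The ID1 window held 3 GTCT matches, and those of ID2, ID3 and SMAD6 held 2 each. Counted from the start site, the ID1 matches began at -162, -136 and -25, those of ID2 at -103 and -95, those of ID3 at -158 and -146, and those of SMAD6 at -12 and -8, where they adjoined. GTCT was found on either strand in 84% of 35116 human promoters of the same length, so its presence sets none of these genes apart. The GC-rich palindrome GGCGCC, a second SMAD-bound sequence, was in 19.2% of all promoters and in none of these 4 windows, but it occurred 3 times in that of BAMBI and 2 times in the first listed promoters of BMP4 and SMAD3. GGCGCC followed after 5 bases by GTCT, on either strand, was in 0.103% of promoters, and GGCGNC in the same arrangement was in 0.35%. None of the 9 genes with a listed promoter held either within this window, and sequence further upstream was not searched. These are matches of letters and do not show binding, and GTCT can lie within the longer arrangements.

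Gene counts per library ran from 8269406 to 11110814. Levels are given as CPM, the count per 1000000 gene counts after TMM scaling of the 16 libraries, which corrects for differences in library composition. All 8 colon epithelial markers examined, among them EPCAM, KRT8, CDX2 and VIL1, had a mean of at least 1 CPM in every group, and the fibroblast markers COL3A1 and THY1 and the T cell marker CD3E were at 0 in all 4 groups. Of the 7 fibroblast markers, PDGFRB was the highest in HT55, with a mean of 1.04 CPM in controls and 2.49 CPM in treated libraries. COL1A1 was the highest in SW948, at 3.17 and 10.1 CPM. The part of these markers in the results was not tested. None of the 3 endothelial markers found reached a mean of 1 CPM. The 5 leukocyte markers, led by CD68 and LYZ, which epithelial cells also express, summed to 28.3 to 32.9 CPM in HT55 controls and 23.7 to 63.15 CPM in treated HT55, and to 312.6 to 366.5 CPM in SW948 controls and 204.5 to 232.4 CPM in treated SW948, and their part in the results was not tested. The third HT55 library treated with itraconazole stood apart. On the second principal component of log2 CPM it lay at -13.25, between the HT55 controls at 16.02 to 17.00 and the other treated HT55 libraries at -33.84, -46.79 and -35.60. HT55 results whose call or sign changes without it are given both ways. The share of listed reads with more than 1 alignment was 22.0% to 23.6% in SW948 controls and 25.3% to 26.3% in treated SW948, and 26.3% to 27.1% against 24.1% to 27.9% in HT55, and its part in the results was not tested.

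The 10 genes moved in different ways in the 2 lines. In SW948, itraconazole lowered ID1 4.57-fold, SMAD6 3.53-fold and ID3 3.02-fold and raised BMP2 1.98-fold. In HT55 the same treatment raised SMAD6 1.70-fold and ID2 1.68-fold and lowered BAMBI 1.71-fold, while ID1 and ID3 did not pass the test. BAMBI fell and SMAD3 and SMAD7 rose in both lines, although the SMAD3 and SMAD7 rises were lost in both when plain library totals replaced the TMM scaling. In bulk RNA, fewer cells of a kind and less RNA per cell cannot be told apart.

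**Figure D1:**
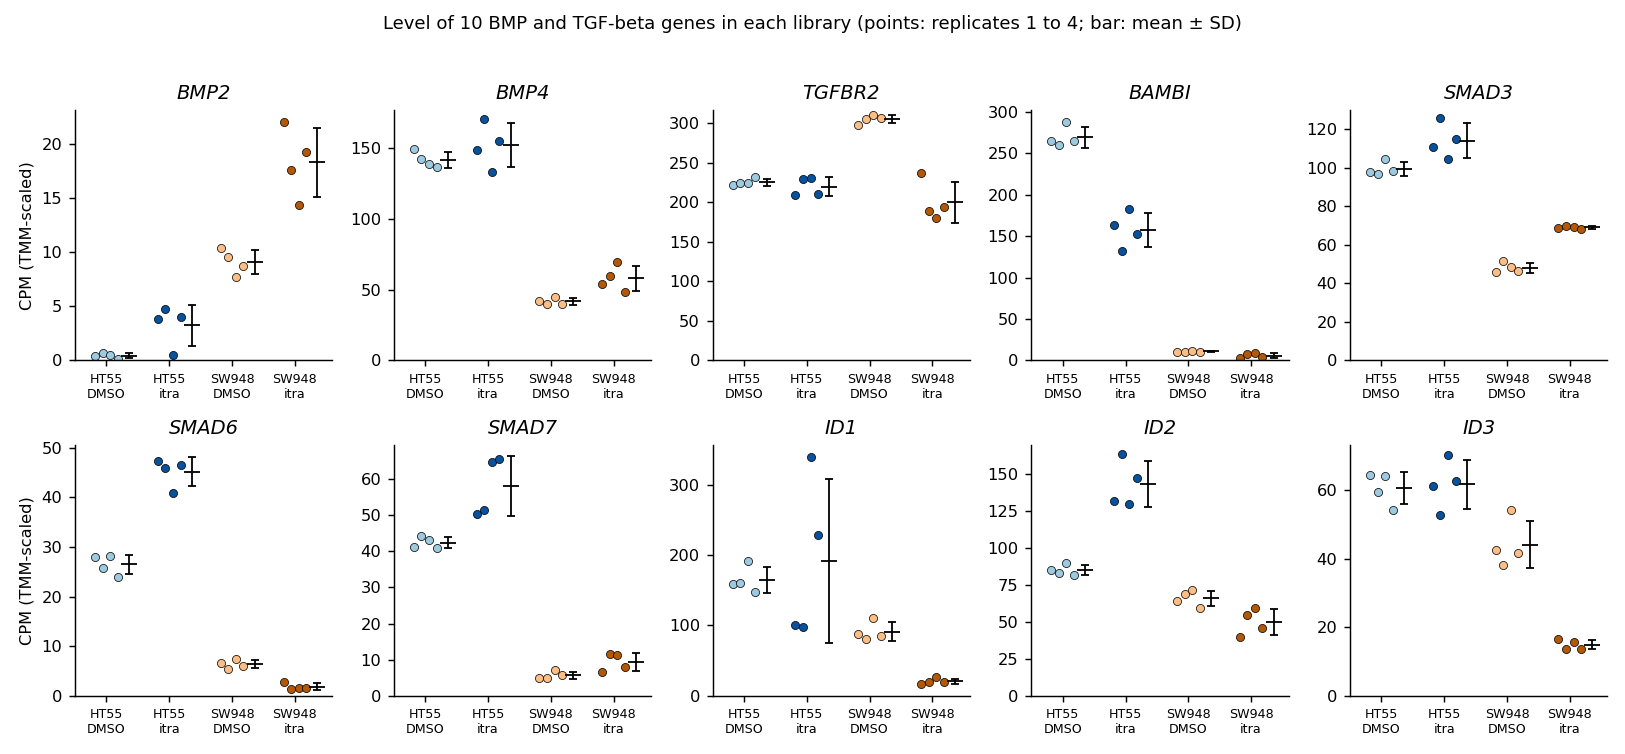
CPM of the 10 genes (y axis, from 0, a separate scale per gene) in each of the 16 libraries, with 4 groups on the x axis (DMSO or itraconazole, shortened to itra, in HT55 and in SW948). Points are replicates 1 to 4 from left to right and the bar beside them is the mean ± SD. ID1 in treated HT55 ranged from 97.2 to 340 CPM, while in treated SW948 it ranged from 17.0 to 26.2 CPM, below every SW948 control.

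Each line was tested by itself with the quasi-likelihood test of edgeR, with p-values adjusted by the Benjamini-Hochberg method over all genes tested, and a gene was called at an adjusted p under 0.05. In HT55 9 of the 10 genes passed the filter on low counts and 5 were called, 4 of them higher. Across all 12133 genes tested in HT55, 54% were called, 27.5% as risen and 26.5% as fallen, so the members' count was close to that of genes at large. Without the third treated HT55 library 7 members were called, BMP2 and BMP4 being added, and 7911 of 12263 genes. BMP2 then passed the filter only through the treated libraries, where it was higher. In SW948 all 10 passed the filter and all 10 were called, 4 higher and 6 lower. The share called across the 12505 genes tested in SW948 was 80.2%, with 38.9% risen and 41.3% fallen. Their median log2 fold change was 0.19 in HT55 against -0.015 over all genes, and -0.54 in SW948 against -0.025. Treated and control libraries did not overlap for 4 members in HT55, where 49.4% of genes did not overlap, and for 8 members in SW948, where 74.7% did not. Plain totals moved the median of all genes by -0.17 on the log2 scale in HT55 and by -0.33 in SW948, giving 2279 genes up and 4710 down in HT55 (3340 and 3213 with TMM) and 3145 up and 6832 down in SW948 (4865 and 5165 with TMM). The changes given below are on the TMM scale.

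**Figure D2:**
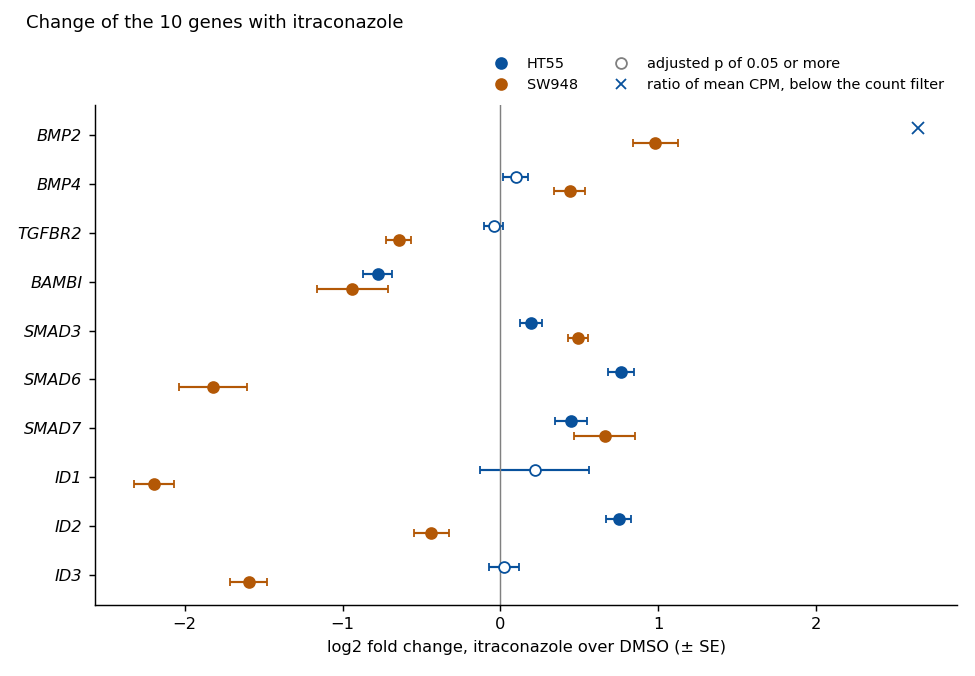
log2 fold change of itraconazole over DMSO (x axis) for the 10 genes (y axis) in HT55 and in SW948. Points with bars are the edgeR estimate ± SE, open points have an adjusted p of 0.05 or more, and the cross is the log2 ratio of mean CPM of BMP2 in HT55, which was below the count filter. SMAD6 and ID2 lie to the right of 0 in HT55 and to the left in SW948.

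BMP2 and BMP4 are secreted ligands of the BMP arm. BMP2 (ENSG00000125845; GRCh37 chr20:6748333-6760893, plus strand) stood at 10.4, 9.56, 7.73 and 8.71 CPM in SW948 controls and at 22.0, 17.5, 14.4 and 19.2 CPM in treated SW948. The treated libraries were all higher, with a log2 fold change of 0.98 ± 0.14 (SE, n = 4 per group) and an adjusted p of 1.76e-05 by edgeR. In HT55 BMP2 was near the limit of detection, with 4, 7, 5 and 1 counts in the controls and 32, 40, 5 and 32 counts in the treated libraries. The third treated library sat with the controls and the other 3 lay above them. The mean CPM on plain library totals was 0.462 ± 0.259 (SD, n = 4) in HT55 controls and 2.89 ± 1.65 in treated HT55, a ratio of 6.26. The two-sided exact permutation test gave p = 0.0857, where 0.0286 is the smallest p that 4 against 4 libraries can give. Fits that kept this gene called it, as DESeq2 did with a log2 fold change of 2.84 and an adjusted p of 0.000148. Without the third treated library, BMP2 passed the filter, but only through the other 3 treated libraries, where it was higher. edgeR then gave 3.15 ± 0.33 with an adjusted p of 2.71e-06. The library left out was the one at the level of the controls, so this fit adds no support to the permutation test.

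BMP4 (ENSG00000125378; GRCh37 chr14:54416454-54425479, minus strand) was the more abundant ligand. It stood at 149, 142, 138 and 136 CPM in HT55 controls and at 148.5, 170.3, 133 and 155 CPM in treated HT55. These ranges overlapped and the log2 fold change of 0.10 ± 0.077 was not called (edgeR adjusted p = 0.316), although without the third treated library it became 0.17 ± 0.063 and was called at an adjusted p of 0.0314. In SW948 it was 41.9, 40.1, 45.0 and 39.8 CPM in DMSO and 54.1, 59.9, 69.4 and 48.3 CPM in itraconazole. All treated SW948 libraries were above all controls, by 0.44 ± 0.10 on the log2 scale (edgeR adjusted p = 0.00108), a call that was lost on plain library totals, where the log2 fold change was 0.10. An antisense transcript overlaps BMP4 in the annotation, and a different antisense transcript overlaps SMAD3. Whether the counting used strand is not given in the sources used here.

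TGFBR2, the type II receptor that binds TGF-beta itself, changed in SW948. Its levels (ENSG00000163513; GRCh37 chr3:30648093-30735634, plus strand) were 298, 305, 309.8 and 306 CPM in SW948 controls and 236.5, 189, 179 and 194 CPM in treated SW948. No treated library reached the controls, and the log2 fold change was -0.64 ± 0.079 (edgeR adjusted p = 3.74e-06). In HT55 it ran from 221 to 231.5 CPM in DMSO and from 209 to 230 CPM in itraconazole. These overlapped, and the log2 fold change of -0.04 ± 0.060 had an edgeR adjusted p of 0.579, although on plain library totals it was -0.21 and called at 0.019.

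BAMBI, which resembles a type I receptor but lacks the kinase and so blocks signaling, fell in both lines. In HT55 it stood (ENSG00000095739; GRCh37 chr10:28966439-28971861, plus strand) at 265, 259.6, 288 and 264 CPM in DMSO and at 163, 132, 182 and 152 CPM in itraconazole. The groups did not overlap, and the change was -0.78 ± 0.092 on the log2 scale (edgeR adjusted p = 8.74e-05). SW948 held far less of it, 10.7, 10.7, 11.6 and 10.8 CPM in DMSO and 3.21, 7.22, 8.91 and 4.52 CPM in itraconazole. Every treated library was again below every control, and the log2 fold change was -0.94 ± 0.22 (edgeR adjusted p = 0.00152). The spread among treated SW948 libraries was wide, from 32 to 70 counts.

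SMAD3, which carries the TGF-beta signal to the nucleus, rose modestly. In SW948 it (ENSG00000166949; GRCh37 chr15:67356101-67487511, plus strand) was 45.8, 51.5, 48.6 and 46.3 CPM in DMSO and 68.9, 69.7, 69.4 and 68.05 CPM in itraconazole. The 4 treated libraries lay within 2 CPM of each other and above all controls, and the change was 0.49 ± 0.064 on the log2 scale (edgeR adjusted p = 7.21e-06), which on plain library totals was 0.16 and no longer called (0.0514). In HT55 it ran from 96.9 to 104.7 CPM in DMSO and from 104.5 to 126 CPM in itraconazole. The ranges touched, and the log2 fold change of 0.19 ± 0.068 was near the threshold, at an edgeR adjusted p of 0.0337. That call was kept in 3 of the 8 fits that left out 1 library, among them the fit without the third treated library (0.25 ± 0.062, edgeR adjusted p = 0.00348), and lost without control library 1, 2 or 4 or treated library 2 or 4, where the edgeR adjusted p ran from 0.0627 to 0.0779. It was also lost with the replicate number as a block (0.0683), with no count filter (0.101) and on plain totals, where the log2 fold change was 0.02.

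SMAD6, the inhibitor that acts mainly on the BMP arm and is a direct BMP target, moved in opposite directions. Its levels in HT55 (ENSG00000137834; GRCh37 chr15:66994574-67075187, plus strand) were 27.9, 25.8, 28.2 and 24.0 CPM in DMSO and 47.4, 46.0, 40.8 and 46.6 CPM in itraconazole. All treated HT55 libraries were above all controls, by 0.76 ± 0.084 on the log2 scale (edgeR adjusted p = 5.61e-05). In SW948 it was 6.58, 5.49, 7.47 and 6.09 CPM in DMSO and 2.80, 1.42, 1.53 and 1.47 CPM in itraconazole. All treated SW948 libraries were below all controls, and the change was -1.82 ± 0.22 on the log2 scale (edgeR adjusted p = 2.84e-06). The first treated SW948 library, with 28 counts against 11, 12 and 13 in the others, was the highest, and without it the log2 fold change was -2.13.

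SMAD7, which inhibits both arms and directs receptors to degradation, rose in both. In HT55 it (ENSG00000101665; GRCh37 chr18:46446223-46477335, minus strand) was 41.3, 44.4, 43.2 and 40.9 CPM in DMSO and 50.4, 51.4, 64.7 and 65.7 CPM in itraconazole. The groups did not overlap, and the change was 0.45 ± 0.10 on the log2 scale (edgeR adjusted p = 0.00377). In SW948 it was 4.98, 5.02, 7.12 and 5.70 CPM in DMSO and 6.51, 11.6, 11.2 and 8.03 CPM in itraconazole. The third control lay above the first treated library, and the log2 fold change was 0.66 ± 0.19 (edgeR adjusted p = 0.00632). On plain library totals neither rise was called, at 0.29 (adjusted p = 0.0573) in HT55 and 0.33 (0.12) in SW948 with edgeR.

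ID1 fell in SW948 and was not called in HT55. In SW948 it (ENSG00000125968; GRCh37 chr20:30193086-30194318, plus strand) stood at 88.0, 81.0, 110.4 and 85.3 CPM in DMSO and at 17.0, 19.5, 26.2 and 19.2 CPM in itraconazole. The highest treated library was under all controls, and the log2 fold change was -2.19 ± 0.13 (edgeR adjusted p = 2.26e-09). In HT55 it was 159, 160.3, 191 and 147.5 CPM in DMSO and 100.1, 97.2, 340 and 228 CPM in itraconazole. The treated HT55 libraries split to both sides of the controls, 2 below the lowest and 2 above the highest. The log2 fold change of 0.22 ± 0.34 was not called (edgeR adjusted p = 0.612), and without the third treated library, the highest, it was -0.21 ± 0.23 (0.433).

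ID2 rose in HT55 and fell in SW948. It (ENSG00000115738; GRCh37 chr2:8818975-8824591, plus strand) stood at 85.0, 83.2, 89.4 and 81.4 CPM in HT55 controls and at 132, 163, 129.8 and 147 CPM in treated HT55. The groups were well apart, and the change was 0.75 ± 0.080 on the log2 scale (edgeR adjusted p = 4.76e-05). In SW948 it was 64.3, 68.4, 71.1 and 59.3 CPM in DMSO and 39.6, 54.7, 59.6 and 45.6 CPM in itraconazole. The third treated library lay just above the lowest control, and the log2 fold change was -0.44 ± 0.11 (edgeR adjusted p = 0.00241). Reads of the antisense gene ID2-AS1, which overlaps an exon of ID2, cannot be told apart from those of ID2 if strand was not used.

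ID3 behaved like ID1 in SW948. There it (ENSG00000117318; GRCh37 chr1:23884417-23885992, minus strand) was 42.6, 38.05, 54.1 and 41.8 CPM in DMSO and 16.4, 13.7, 15.8 and 13.8 CPM in itraconazole. The treated libraries were all under 17 CPM and all controls above 38, and the change was -1.59 ± 0.12 on the log2 scale (edgeR adjusted p = 1.97e-08). In HT55 ID3 ran from 54.3 to 64.5 CPM in DMSO and from 52.9 to 70.3 CPM in itraconazole. The ranges overlapped, and the log2 fold change was 0.02 ± 0.095 (edgeR adjusted p = 0.855) or, without the third treated library, -0.04 ± 0.081 (0.717).

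Whether the response differed between the lines was tested on all 16 libraries as the SW948 change minus the HT55 change. It differed for 8 of the 10 genes, where 53.9% of the 13249 genes tested did. The difference was -2.56 ± 0.22 on the log2 scale for SMAD6 (edgeR adjusted p = 2.52e-08), -2.38 ± 0.41 for ID1 (7.55e-05), -1.59 ± 0.16 for ID3 (1.52e-07) and -1.16 ± 0.15 for ID2 (2.78e-06). So ID1, ID2, ID3 and SMAD6 shared a lower response in SW948, and this held in each of the 16 fits that left out 1 library. ID4, from the wider list of pathway genes below, went the other way, with a difference of 1.55 ± 0.44 (edgeR adjusted p = 0.00549). Its log2 fold change was -0.60 ± 0.21 in HT55 (edgeR adjusted p = 0.0321) and 0.92 ± 0.32 in SW948 (0.0157). Without the third treated HT55 library the ID1 difference was -1.96 ± 0.30 (edgeR adjusted p = 1.38e-05). TGFBR2 differed by -0.57 ± 0.10 (edgeR adjusted p = 0.000126), also in all 16 such fits.

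The 3 other differences varied more with the libraries or the scaling. BMP2 differed by -1.72 ± 0.63 (edgeR adjusted p = 0.026), with the 17 counts of the HT55 controls behind it, and was not called without HT55 control library 1 or 4 or treated library 2 or 4 (0.0513 to 0.0685). Without the third treated HT55 library, which held 5 counts, the BMP2 difference was -2.13 ± 0.38 (edgeR adjusted p = 7.42e-05). BMP4 differed by 0.37 ± 0.13 (edgeR adjusted p = 0.0233), which became 0.27 and was not called (0.0641) without the third treated SW948 library, and 0.18 on plain totals (0.19). SMAD3 differed by 0.33 ± 0.093 (edgeR adjusted p = 0.00588), or 0.14 on plain totals (0.201). For BAMBI the difference was -0.14 ± 0.23 (edgeR adjusted p = 0.645) and for SMAD7 0.24 ± 0.22 (0.366), estimates that leave room for a difference of either sign.

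The 2 lines also differed before any drug. All 10 genes were called between SW948 and HT55 in DMSO, 2 higher and 8 lower in SW948, where 75.9% of all genes were called, 38.2% as higher and 37.7% as lower. BMP2 was higher in SW948 by 4.26 ± 0.45 on the log2 scale (edgeR adjusted p = 4.44e-08) and TGFBR2 by 0.44 ± 0.073 (2.05e-05). BAMBI was the furthest in the other direction, at -4.62 ± 0.16 or 24.6-fold lower (edgeR adjusted p = 1.57e-15). The difference was -2.89 ± 0.15 for SMAD7, -2.04 ± 0.13 for SMAD6, -1.76 ± 0.095 for BMP4 and -1.05 ± 0.066 for SMAD3, each with an edgeR adjusted p of 2.06e-11 or less. All 3 inhibitors were therefore lower in SW948. The ID genes were also lower in SW948, with ID1 at -0.85 ± 0.27 (edgeR adjusted p = 0.00839), ID2 at -0.37 ± 0.10 (0.00335) and ID3 at -0.46 ± 0.10 (0.000546), and on plain totals the ID2 and ID3 differences shrank to -0.17 and -0.26 and were not called.

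Levels of different genes were compared as CPM per kb of exon, from the union of exons of each gene on GRCh37. This union can be longer than the transcript expressed, so the ranks depend on it. In SW948 controls SMAD6 stood above SMAD7 in CPM (6.41 against 5.71) but below it per kb, with unions of 8.556 and 3.946 kb. In HT55 controls ID1 at 133 ± 15.2 (SD, n = 4) and BAMBI at 126 ± 5.92 CPM per kb led, closer together than their spread. BMP4 at 45.7, ID3 at 40.6, ID2 at 38.3 and TGFBR2 at 32.9 CPM per kb formed a middle group, SMAD7 and SMAD3 stood at 10.8 and 9.93, SMAD6 at 3.10 and BMP2 at 0.127. In SW948 controls ID1 again led at 74.0 ± 10.6 CPM per kb, followed by TGFBR2 at 44.5 ± 0.725, while BAMBI was sixth at 5.11 ± 0.196. ID2 at 29.7 ± 2.34 and ID3 at 29.5 ± 4.64 were within their spread of each other. With itraconazole ID1 dropped from the first to the fourth place in SW948, at 16.6 ± 3.22 CPM per kb, behind TGFBR2 at 29.1, ID2 at 22.5 and BMP4 at 18.7. In treated HT55 ID1 stayed first at 155 ± 94.3 and ID2 moved from the fifth to the third place at 64.6 ± 7.003 CPM per kb.

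**Figure D3:**
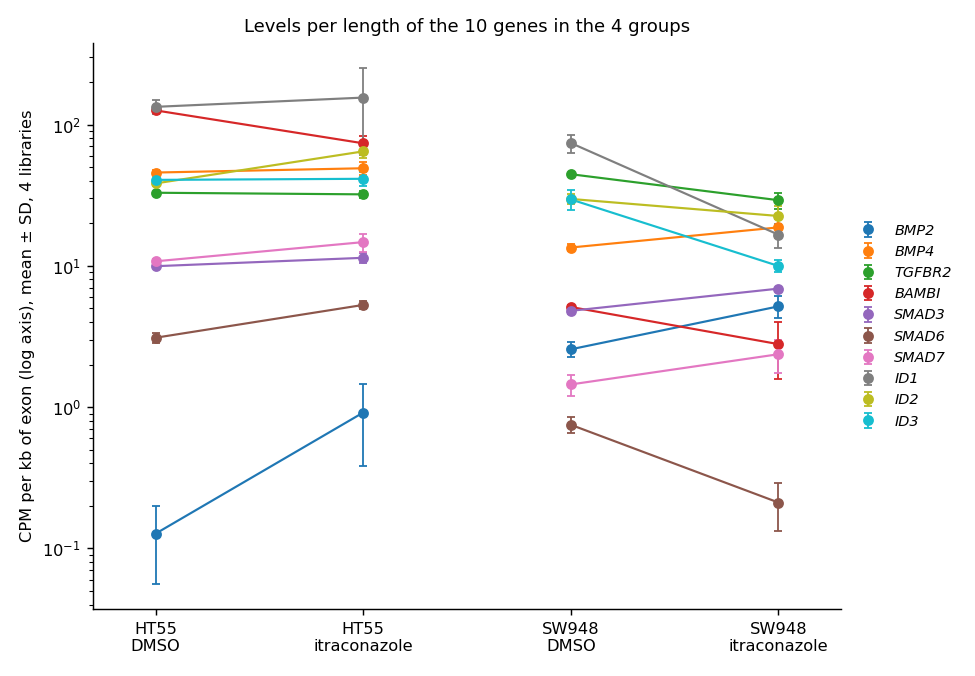
Mean ± SD of CPM per kb of exon (y axis, log scale) over the 4 libraries of each group (x axis) for the 10 genes, with lines joining DMSO and itraconazole within a line of cells. ID1 and BAMBI are the 2 highest genes in HT55 controls, whereas in SW948 controls BAMBI lies at 5.11 CPM per kb and SMAD6 is lowest at 0.749.

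Across the 4 groups the order of the levels of each gene mostly followed the line. For BMP4, BAMBI, SMAD3, SMAD6, SMAD7, ID1, ID2 and ID3 both HT55 groups had higher mean CPM than both SW948 groups. The smallest step between the lines among these was that of ID2, whose HT55 control mean of 84.7 CPM was 1.29 times the SW948 control mean of 65.8 CPM, with no overlap. BMP2 was the reverse, with both SW948 groups above both HT55 groups. TGFBR2 was the exception, highest in SW948 controls at 305 ± 4.96 CPM (SD, n = 4), with treated SW948 at 199.6 ± 25.3 CPM overlapping treated HT55 at 219.5 ± 11.7 CPM.

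A wider list of 86 other BMP and TGF-beta genes gave the surroundings. In HT55 55 of them were tested and 34 called, 27 higher and 7 lower, with a median log2 fold change of 0.22, and 40 were called without the third treated library. In SW948 58 were tested and 48 called, 29 higher and 19 lower, with a median of 0.15. Of these, treated and control libraries did not overlap for 29 genes in HT55 and 45 in SW948, beside 49.4% and 74.7% of all genes. The shares called, 61.8% and 82.8%, stood beside 54% and 80.2% over all genes, so both total counts were near those of genes at large. By direction, 27.5% of all genes rose and 26.5% fell in HT55, with a median of -0.015. In SW948 38.9% rose and 41.3% fell, with a median of -0.025. The list thus leaned more to higher levels than genes at large, most of all in HT55. By role, the 4 tested SMADs of the list counted 3 higher in HT55 and 2 higher in SW948, with none lower. The receptors counted 6 higher and 1 lower of 10 in HT55 and 5 higher and 5 lower of 12 in SW948. The extracellular regulators counted 5 higher and none lower of 8 in HT55 and 2 higher and 4 lower of 9 in SW948. Intracellular regulators counted 6 higher and 1 lower of 15 in HT55 and 10 higher and 4 lower of 14 in SW948, ligands 2 higher and 3 lower of 6 and 3 higher and 2 lower of 6, and targets 5 higher and 2 lower of 12 and 7 higher and 4 lower of 13.

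**Figure D4:**
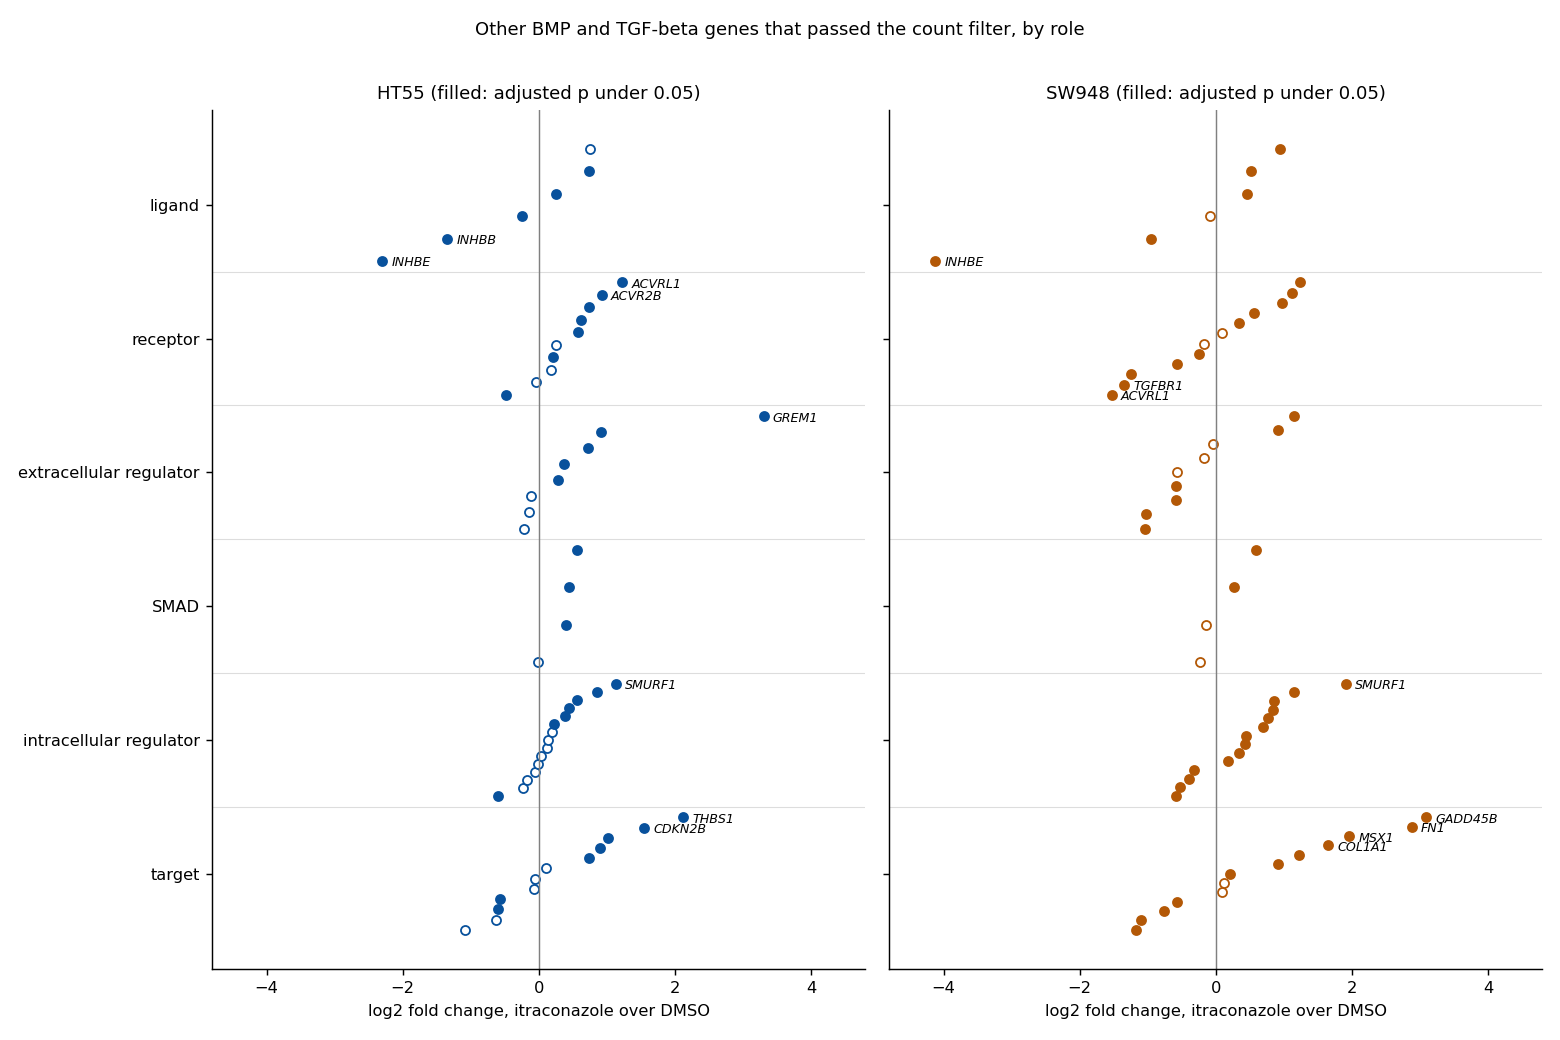
log2 fold change of itraconazole over DMSO (x axis) for the 86 listed genes that passed the count filter, 55 in HT55 (left) and 58 in SW948 (right), in rows by role, with filled points for an adjusted p under 0.05. The 8 genes per line named by size of change are written beside their points. GREM1 lies furthest to the right in HT55 and INHBE furthest to the left in SW948.

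Several regulators and receptors went in opposite directions. GREM1, a secreted antagonist that binds BMP2 and BMP4, rose in HT55 from 1.12 ± 0.128 to 11.3 ± 3.45 CPM (SD, n = 4), or 3.31 ± 0.28 on the log2 scale (edgeR adjusted p = 1.25e-05). In SW948 GREM1 fell from 100.8 ± 9.66 to 50.2 ± 12.52 CPM, or -1.03 ± 0.13 on the log2 scale (edgeR adjusted p = 6.06e-06). The type I receptor ACVRL1 rose from 2.46 ± 0.358 to 5.77 ± 2.59 CPM in HT55, by 1.23 ± 0.32 on the log2 scale (edgeR adjusted p = 0.00797). ACVRL1 fell from 10.6 ± 0.469 to 3.70 ± 1.19 CPM in SW948, by 1.53 on the log2 scale (edgeR adjusted p = 2.1e-06). The TGF-beta type I receptor TGFBR1, partner of TGFBR2, fell in both, at -0.48 ± 0.070 on the log2 scale in HT55 (edgeR adjusted p = 0.000278) and -1.35 ± 0.080 in SW948 (2.79e-09). The activin type II receptor ACVR2B rose in both, by 0.93 ± 0.19 (edgeR adjusted p = 0.00186) and 1.12 ± 0.18 (5.2e-05).

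SMURF1, a ubiquitin ligase that marks BMP SMADs and receptors for degradation, rose from 43.8 ± 2.63 to 96.3 ± 17.4 CPM in HT55 and from 72.2 ± 3.36 to 278 ± 45.9 CPM in SW948. Its log2 fold changes were 1.13 ± 0.12 (edgeR adjusted p = 4.61e-05) and 1.91 ± 0.10 (1.23e-09). The activin subunit gene INHBE fell in both lines, from 3.89 ± 0.920 to 0.745 ± 0.550 CPM in HT55 and from 4.66 ± 0.436 to 0.267 ± 0.179 CPM in SW948. These were log2 fold changes of -2.30 ± 0.40 (edgeR adjusted p = 0.000816) and -4.12 ± 0.31 (2.71e-08). The treated levels were near the limit of detection, so the sizes of both falls rest on few reads. INHBB, which encodes another activin subunit, fell in HT55 from 14.8 ± 1.12 to 5.93 ± 3.25 CPM (log2 fold change -1.34 ± 0.34, edgeR adjusted p = 0.0068) and was below the filter in SW948.

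Among genes known as TGF-beta targets, the secreted glycoprotein gene THBS1 rose in HT55 from 83.6 ± 6.99 to 366 ± 105 CPM and fell in SW948 from 33.0 ± 1.45 to 22.8 ± 5.35 CPM. Its log2 fold changes were 2.12 ± 0.19 (edgeR adjusted p = 1.95e-05) and -0.57 ± 0.13 (0.00126). CDKN2B, which encodes a cyclin-dependent kinase inhibitor, followed the same pattern, with log2 fold changes of 1.55 ± 0.27 in HT55 (edgeR adjusted p = 0.000804) and -0.76 ± 0.094 in SW948 (3.92e-06). GADD45B, a stress-induced target, rose in SW948 from 6.09 ± 0.720 to 53.6 ± 22.1 CPM, by 3.09 ± 0.27 on the log2 scale (edgeR adjusted p = 1.06e-07). GADD45B also rose in HT55, from 11.1 ± 1.11 to 22.9 ± 9.74 CPM, with overlapping groups. That change was 1.02 ± 0.29 on the log2 scale (edgeR adjusted p = 0.0123). The homeobox gene MSX1, a BMP target, rose in SW948 from 2.14 ± 0.436 to 8.69 ± 1.995 CPM, by 1.96 ± 0.20 (edgeR adjusted p = 7.43e-07), while ID1, ID3 and SMAD6 fell there. HT55 held far more MSX1, 82.6 ± 9.52 CPM in DMSO and 88.8 ± 58.4 CPM in itraconazole. The HT55 change of 0.11 ± 0.36 on the log2 scale was not called (edgeR adjusted p = 0.816).

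The matrix genes FN1 and COL1A1 rose in SW948. FN1 went from 3.66 ± 0.406 to 27.7 ± 6.82 CPM, by 2.88 ± 0.18 on the log2 scale (edgeR adjusted p = 5.38e-09). COL1A1 went from 3.17 ± 0.816 to 10.1 ± 1.03 CPM, by 1.65 ± 0.18 (edgeR adjusted p = 9.01e-07). COL1A1 is also 1 of the 7 fibroblast markers examined and made up most of their summed level in SW948. That sum was 2.54 to 4.69 CPM in SW948 controls and 9.95 to 12.1 CPM in treated SW948, so its rise is largely that of COL1A1 itself. The sums were 1.41 to 2.14 and 3.33 to 3.98 CPM in HT55. COL1A1 was the only fibroblast marker with a mean of at least 1 CPM in SW948, and COL3A1 and THY1 were at 0 there.

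The genes whose log2 CPM, centered on its mean over the 16 libraries, lay closest to that of ID1 among 9212 genes were SLC7A6, SELENBP1, LRRC45, PIGQ and IRF2BP1. Their root mean square distances from ID1 were 0.274, 0.306, 0.344, 0.346 and 0.352, where the ID1 profile itself had a root mean square of 1.30. For BMP4 the closest were IPMK, CPPED1, PRPF8, PGRMC1 and NOP53, at distances of 0.105, 0.126, 0.147, 0.152 and 0.154 against 0.815 for BMP4 itself.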

How the data were processed

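RNA of 16 libraries (HT55 or SW948, DMSO or itraconazole, 4 replicates each) was extracted on columns, made into TruSeq libraries and sequenced as single-end reads of 50 bp. The authors deposited 1 table of counts for every library, holding unnormalized reads per gene. The submitters' processing notes name TopHat, HTSeq, DESeq and hg19, and versions, annotation release and strand setting are not given in the sources used here. Each file lists 54127 identifiers, followed by 5 totals of reads outside genes, which held 28.2% to 32.9% of the listed reads and were left out. Reads with more than 1 alignment were set apart, so genes with near-identical copies lose counts.

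Groups were taken from the sample titles. Each line was fitted on its 8 libraries, and the difference in response and the DMSO contrast between lines on all 16, with edgeR 4.0.16 in R 4.3.3 (TMM, filterByExpr, quasi-likelihood test, Benjamini-Hochberg adjustment over all genes tested, calls at an adjusted p under 0.05). Standard errors came from the F statistic of each fold change. Log2 CPM for the principal components and profile distances used a prior count of 2. For a member below the filter, CPM on plain totals was permuted exactly over the libraries (two-sided). Fits were tested on simulated counts in which few genes changed, as many up as down. That setting cannot check the TMM scaling where most genes are called, as in both lines here. Alternatives were other scalings, filters and thresholds, DESeq2 1.42.0, a replicate block, 1 fit on all libraries and leaving out each library. Without molecular identifiers, reads are not independent molecules. Exon lengths and coordinates came from GENCODE on GRCh37, and promoters from RefSeq, which listed 9 of the 10 members.

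The members and the other gene lists were chosen with earlier results of these data known. All 10 members are named. Of the 86 other pathway genes, those named are the 8 per line with the largest change, and ID4, named beside ID1, ID2 and ID3. The 8 were taken among called genes whose groups did not overlap and whose mean log2 CPM was at least 1 in that line. The like genes are the 5 nearest to ID1 and to BMP4 among genes averaging at least 3 on that scale.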

Additional observations from a re-analysis of the deposited data

Results flagged for a closer look

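Groups of 4 libraries were examined for the 10 members and the 13 pathway genes named by size of change. In 6 of the 92 groups 1 library lay far from the other 3, where chance gives about 1 in 20. For each, the gap to the nearest library took a share of the group's range above Dixon's critical value. Among the members these were BAMBI in the third SW948 control (0.8675) and SMAD6 in the first treated SW948 library (0.922). The others were GREM1 in the second HT55 control (0.910), COL1A1 in the third HT55 control (0.861), TGFBR1 in the third treated HT55 library (0.8295) and INHBB in the first treated SW948 library (1), the last with 0 counts in the other 3.

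The response differed between SW948 and HT55 by the edgeR interaction test for 18 of these 23 genes, beside 53.9% of all 13249 genes tested. The 13 pathway genes were picked for a large change in a line, which favors such a difference, so the count does not describe the pathway. For the members the difference, SW948 change minus HT55 change on the log2 scale, was -1.72 for BMP2, 0.37 for BMP4, -0.57 for TGFBR2, 0.33 for SMAD3, -2.56 for SMAD6, -2.38 for ID1, -1.16 for ID2 and -1.59 for ID3. For the other genes it was -4.305 for GREM1, -2.73 for ACVRL1, -2.67 for THBS1, -2.27 for CDKN2B, -1.79 for INHBE and -0.83 for TGFBR1. It was 0.81 for SMURF1, 1.88 for MSX1, 2.10 for GADD45B and 2.31 ± 0.73 for FN1 (edgeR adjusted p = 0.012). BMP2 and FN1 were below the count filter in HT55 and passed it in the 16-library fit. FN1 averaged 0.218 CPM in HT55 controls and 0.336 CPM in treated HT55, so no HT55 response of FN1 was measured.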

How the results depend on the processing

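Counts of called members stayed within 1.5 times of those given under every alternative, at 4 to 7 in HT55, 7 to 10 in SW948, 6 to 8 for the difference in response and 8 to 10 between the lines in DMSO, as did those of the other pathway genes, at 23 to 40 in HT55 and 43 to 51 in SW948. Of the single log2 values compared, 1091 kept their direction and side of the threshold, 25 lost the call, 2 gained it and 9 changed sign. On plain library totals BMP4 in HT55 became -0.074, ID3 in HT55 -0.14 and MSX1 in HT55 -0.031. Leaving out 1 library, ID1 in HT55 ran from -0.21 to 0.44, ID3 in HT55 from -0.036 to 0.092, MSX1 in HT55 from -0.40 to 0.35 and the BAMBI difference in response from -0.40 to 0.094, none of them called on all libraries. BMP2 in HT55, below the filter, had a log2 ratio of 2.65 (2.33 to 3.003 leaving out 1 library) and was called by DESeq2 (2.84), with no filter (2.73) and in 1 fit on all 16 libraries (2.73). The cause of these shifts was not tested. Depth limited BMP2 in HT55, with 17 counts over 4 controls, and SMAD6 in treated SW948, with 64 counts over 4 libraries. Below the 1.81 CPM of SMAD6 there were also INHBE, at 0.267 CPM in treated SW948 and 0.745 CPM in treated HT55, and GREM1, at 1.12 CPM in HT55 controls. The sizes of their changes are limited by depth in the same way.

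Same-numbered treated and control libraries deviated together with correlations of -0.02 to 0.12 in HT55 and -0.003 to 0.10 in SW948, not every library correlated best with its own number, and the numbers were not taken as pairs. With the replicate number as a block, 4 members were called in HT55 and 10 in SW948, SMAD3 in HT55 was lost (0.0683) and MSX1 in HT55 was -0.095.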
